A study of Homo sapiens with 4 samples.

Results

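The pericentromeric windows of chromosome 10 flank the centromere and hold a small group of zinc finger genes. Their members were chosen by position and not by any measured value. They are all CpGs read on chromosome 10 from 37.8 to 39.15 Mb, the p-side window of 1.35 Mb, and from 42.6 to 44.3 Mb, the q-side window of 1.7 Mb, in hg19. The first and last CpGs read were at chr10:37800152-39149990 and chr10:42600018-44299922. This gave 35472 of the 27710999 CpGs read on the autosomes and X, of which 13227 lay on the p-side and 22245 on the q-side. Counted in 5 kb tiles with 20 or more reads in every library, the windows held 601 regions of 563538 in the genome, 261 on the p-side and 340 on the q-side. Another 9 tile positions had no CpG read in any library.

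The assay was enzymatic methyl sequencing (EM-seq), which leaves a methylated cytosine to be read as C and turns an unmethylated cytosine into a base read as T. As mCG level, the share of CpG reads with C is given in percent, and the gap between a pair of levels in percentage points. Levels are listed for libraries 1 and 2 of WT and then libraries 1 and 2 of ZNF274KO. Cells were of the human embryonic kidney line HEK293T, as wild-type cells (WT) or with the gene ZNF274 deleted by CRISPR-Cas9 (ZNF274KO), with 2 libraries in each group. The deletion used guides on either side of the gene, followed by sorting of single cells. The labels do not say whether the libraries of a group came from separate clones or cultures, so p-values measure the spread between these libraries, which may be technical. Methylation reads cannot check the cell line against marker genes, but they check the deletion. Over the ZNF274 gene, at chr19:58694396-58724928, WT 1 had 5158 reads, WT 2 had 4274, ZNF274KO 1 had 0, which allows up to 3, and ZNF274KO 2 had 14. The libraries carried 241598512 to 295114493 C or T reads over CpGs, a median of 8 to 10 a CpG, where a read that spans several CpGs counts at each. The genome-wide mCG level lay between 58.4% and 60.4%, with the ZNF274KO libraries at both 60.2% and 58.4%.

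KRAB zinc finger proteins bind DNA through tandem C2H2 fingers and recruit, through the KRAB domain, a corepressor that brings histone methylation and silent chromatin. Their genes lie in clusters that arose by duplication, and the fingers are usually encoded in 1 long last exon. ZNF274 is a member of this family that binds many of the other zinc finger genes. In most human cells CpGs are highly methylated outside CpG islands, the CpG-rich stretches at gene starts that are mostly kept unmethylated, while large gene-poor domains of cultured cells have lower levels.

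A stretch of 200 bases shows the change inside ZNF239, near its start, at the level of sequence. It was the stretch of the 5 kb tile called lower there, without any annotated exon and with at least 4 CpGs that all lay in sequence occurring once, that differed most between the groups in the direction called. Its levels are therefore a description. CpGs are in capitals, and the plus strand of GRCh37 is printed.
Intron of ZNF239 near its start, chr10:44069209-44069408: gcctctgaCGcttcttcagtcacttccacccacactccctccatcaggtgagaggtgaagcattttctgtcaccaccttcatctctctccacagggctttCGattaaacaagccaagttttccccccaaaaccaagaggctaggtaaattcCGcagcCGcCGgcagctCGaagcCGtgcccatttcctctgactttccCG
The 8 CpGs of this stretch were methylated in 97.7% and 97.1% of reads in WT and 20.7% and 28.6% in ZNF274KO. Between 35 and 86 reads lay behind each of these values.

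The first comparison asked where mCG levels differed between WT and ZNF274KO cells within the windows. DNA methylation was higher in ZNF274KO in blocks of 10 to 70 kb near both ends of the q-side window, mostly in intergenic and non-coding sequence. It was lower within the first 2 kb of the gene ZNF239, though not within 500 bases of its start. Of the 601 tiles, 42 were called higher and 1 lower at an adjusted p under 0.05 (edgeR's quasi-likelihood test, Benjamini-Hochberg over all 563538 tiles). Across the genome 0.473% of tiles were called higher and 0.0131% lower, against 6.99% of the window tiles called higher. The median difference over the window tiles was 2.49 points, and over all tiles it was -0.58 points. In 43.9% of the window tiles each ZNF274KO library exceeded each WT library, and in the genome this held for 13.5% of tiles. The reverse was seen in 13.1% of the window tiles and in 22.3% of all tiles. An unadjusted p under 0.05 was reached by 171 of the 601 window tiles and by 36730 of all 563538 tiles.

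The knockout libraries differed in how far they stood from WT. In all 42 tiles called higher, the level in ZNF274KO 1 exceeded that in ZNF274KO 2. Without ZNF274KO 1, 27 of the 43 calls were left and none was added. Limma on log ratios called 9 tiles, all among the 43, and 856 of all 563538 tiles, against 2740 by edgeR. Without ZNF274KO 1 the calls over the genome fell as well. The median level of the tiles called higher was 12.3% and 11.7% in WT and 52.1% and 40.4% in ZNF274KO. These tiles were selected for being called higher, so their distance from WT only describes them. ZNF274KO 1 also stood above ZNF274KO 2 genome-wide, at 60.2% against 58.4%. In how many of all tiles this order held was not counted.

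**Figure D1:**
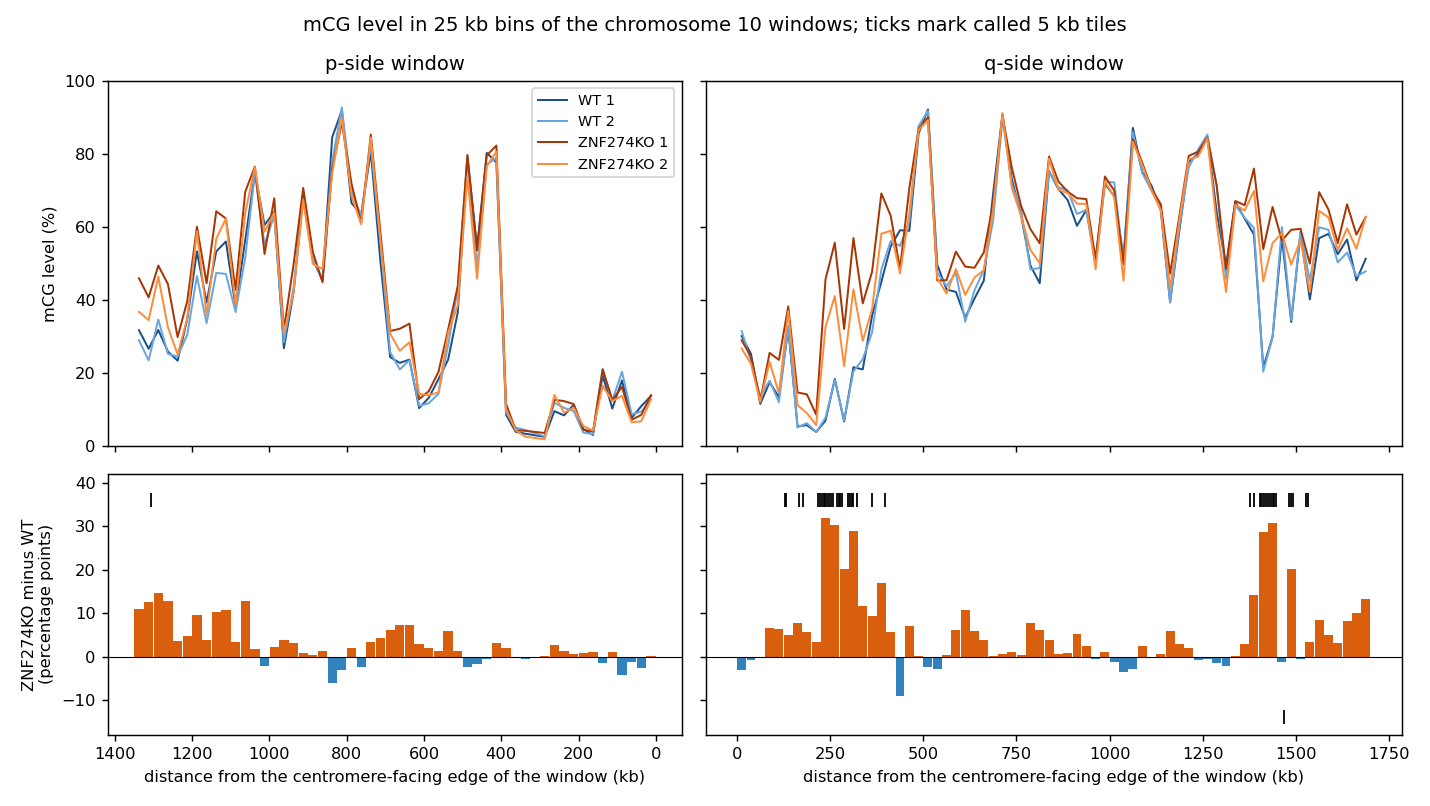
mCG level of each library in 25 kb bins of the p-side and q-side windows (top) and the difference of the group means, ZNF274KO minus WT, in percentage points (bottom), against the distance in kb from the edge of the window that faces the centromere; ticks mark the 5 kb tiles called higher (above) or lower (below). On the q-side the difference reached 31.8 points in separate zones, and the 400 kb of the p-side nearest the centromere stood between 8.61% and 9.62% in the 4 libraries.

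The calls were unevenly placed. 41 of the 42 tiles called higher lay on the q-side, 12.1% of its tiles, and 1 lay on the p-side, 0.383% of its tiles. Whether the windows differ in their response was not tested, and depth differed between them. A p-side CpG carried 5.59 to 6.59 reads, 0.612 to 0.662 of the mean of the autosomes, and a q-side CpG 11.4 to 13.3 reads, 1.25 to 1.34 of it. A p-side tile held fewer reads, with library medians from 193 to 232, against 453 to 538 on the q-side. The part of depth in the difference between the windows was not tested.

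39 of the 43 calls formed 8 blocks, defined as runs of called tiles with at most 1 other tile between them. All 8 lay on the q-side and together they spanned 215 kb. Every tile inside them, called or not, had both ZNF274KO libraries above both WT libraries. This only describes the blocks, since 39 of their tiles were in them for being called higher. None of the tiles called higher consisted entirely of CpGs in sequence that occurs once, and the median share of such CpGs was 60.2% in them and 70.0% in the other tiles. When the CpGs in repeated sequence were left out of the windows, 36 of the 43 calls remained and none was added.

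The longest block spanned 70 kb, chr10:42815001-42885000, of which 13 of 14 tiles were called. It covered part of the long non-coding RNA gene ENSG00000291065 and the pseudogene ENSG00000215146, and the nearest protein-coding zinc finger gene, ZNF33B, was 184633 bases away. Its mCG level over 600 CpGs was 11.1% and 11.4% in WT and 44.8% and 31.5% in ZNF274KO. The groups did not overlap, and the mean rose from 11.3% ± 0.204 to 38.2% ± 9.39 (SD, n = 2). Over its CpGs in sequence occurring once the means were 12.1% and 35.8%. The 25 kb on its centromere side stood at 3.70%, 3.68%, 5.13% and 3.54% in the same order of libraries, a level at which the groups overlapped. The 25 kb on its far side were at 13.1% and 14.4% in WT and 40.3% and 29.0% in ZNF274KO, where the next block began.

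Within this block lay the 5 kb tile with the largest difference of the windows, chr10:42855001-42860000 in ENSG00000291065. It had 37 CpGs and stood at 3.09% and 4.38% in WT and 64.3% and 46.2% in ZNF274KO. The log2 odds ratio was 5.02 ± 0.397 (SE), with an edgeR adjusted p of 2.44e-06. The tile at 42835001 followed, with 8.71% and 10.8% in WT and 63.7% and 41.4% in ZNF274KO. Further tiles of this block among the 10 with the largest changes began at 42850001, 42865001, 42870001 and 42875001, with differences from 33.9 to 40.0 points. In each of them the lower ZNF274KO library stood more than 20 points above the higher WT library.

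The neighbouring block, chr10:42895001-42925000, covered part of CCNYL2, annotated both as a transcribed pseudogene and as a long non-coding RNA on the minus strand. Its 230 CpGs stood at 19.4% and 18.8% in WT and 54.4% and 40.4% in ZNF274KO, a mean of 19.1% ± 0.442 against 47.4% ± 9.91 (SD, n = 2). Both knockout libraries were clearly above both WT libraries. Another tile of CCNYL2, at 42960001, was called on its own, with 15.3%, 15.8%, 55.4% and 40.7% in the same order. A single called tile at 42995001 lay between this gene and the pseudogene ZNF37BP, with levels of 10.6%, 11.3%, 36.3% and 21.5%.

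Closer to the centromere 2 short blocks were called. chr10:42725001-42735000 stood at 10.2% and 8.19% in WT and 33.6% and 24.3% in ZNF274KO. chr10:42765001-42780000 stood at 7.25%, 6.11%, 29.6% and 17.6%. In the second block 24.8% of CpGs lay in sequence occurring once, the lowest share among the 8 blocks, and over these CpGs the means were 3.53% in WT and 26.6% in ZNF274KO.

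The other zone of rises lay around ZNF239, a C2H2 zinc finger gene without a KRAB domain. The block chr10:44000001-44050000 lay in the gap between the end of the KRAB zinc finger gene ZNF487 and the 3′ end of ZNF239, 1792 bases from the latter, and all 10 of its tiles were called. Its 420 CpGs stood at 25.8% and 25.2% in WT and 59.8% and 50.3% in ZNF274KO. The mean rose from 25.5% ± 0.436 to 55.1% ± 6.71 (SD, n = 2), and over CpGs in sequence occurring once from 22.5% to 54.3%. WT levels were lowest in the middle of the gap, as a trough, and the knockout libraries kept a shallower trough at the same place.

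At the bottom of that trough, the tile at 44015001 was methylated in 1.81% and 2.09% of reads in WT and 45.1% and 40.6% in ZNF274KO. This was the lowest adjusted p of the windows, 1.48e-06 by edgeR, with a log2 odds ratio of 5.21 ± 0.391 (SE). The tile at 44030001, which overlapped no annotated gene, stood at 7.90%, 8.73%, 54.9% and 46.9%. In both tiles the groups did not overlap.

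**Figure D2:**
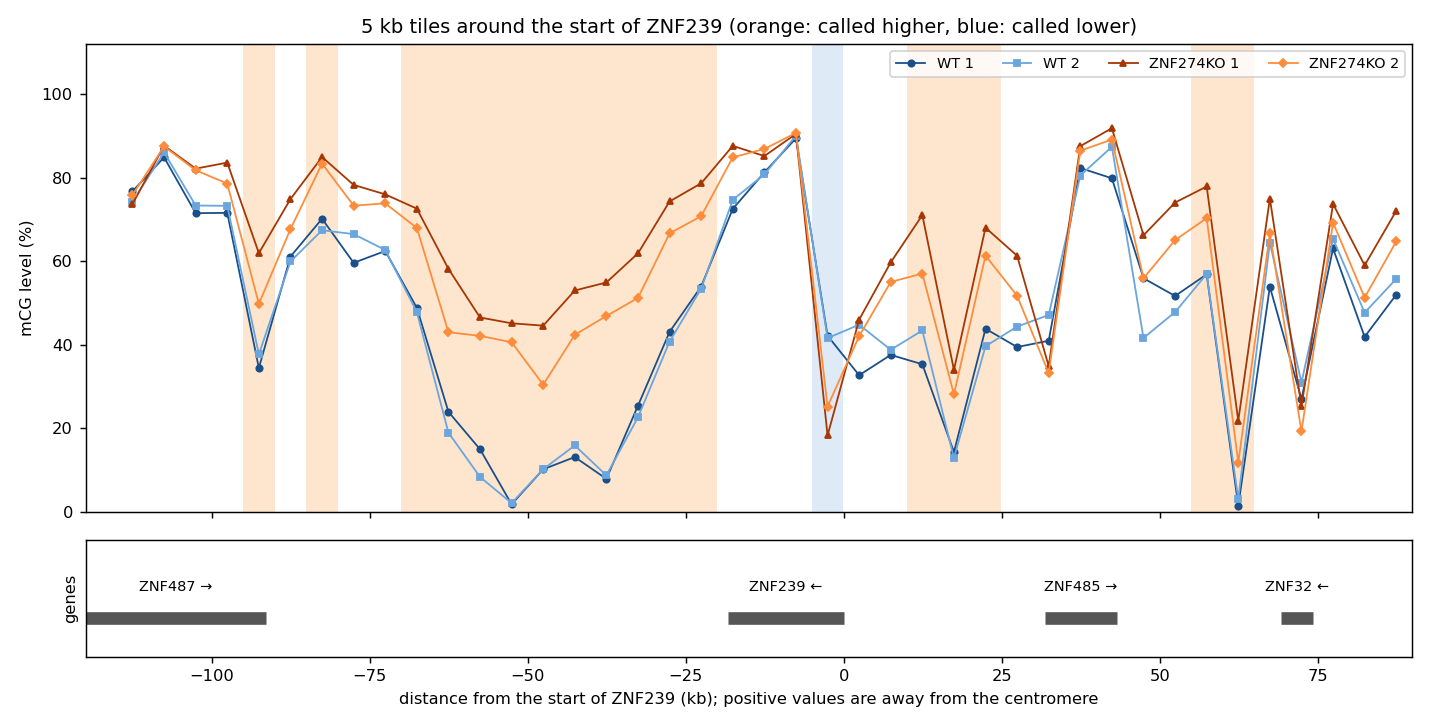
mCG level of each library in 5 kb tiles against the distance in kb from the start of ZNF239 (top), with tiles called higher in orange and called lower in blue, and the positions and directions of 4 zinc finger genes (bottom). The WT libraries dropped to 1.81% and 2.09% in the gap between ZNF487 and ZNF239, where ZNF274KO stayed at 45.1% and 40.6%, and the tile at the start of ZNF239 is the one called lower.

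3 further blocks lay nearby. chr10:43975001-43990000 overlapped the last kilobases of ZNF487, with 56.3% and 56.6% in WT and 75.3% and 68.0% in ZNF274KO. chr10:44080001-44095000 lay between ZNF239 and the KRAB zinc finger gene ZNF485, at 31.5%, 30.6%, 58.4% and 48.1%. chr10:44125001-44135000 lay between ZNF485 and ZNF32, at 42.6%, 44.6%, 63.7% and 55.5%. Compared with the block at 44000001, these 3 started from higher WT levels and rose less, by 15.2, 22.2 and 15.9 points.

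1 of the 42 tiles called higher overlapped a zinc finger gene of the lists, at the end of ZNF487. No exon base of any annotated gene lay in 25 of the 42. The same shares were not counted over the other window tiles, so these counts only describe the called tiles. In WT, 29 of the 42 tiles had a mean level under 20%. On the q-side 36.7% of the 79 tiles under 20% in WT were called higher, and in the rest of the genome 1.44% of such tiles were. On the p-side 97 tiles were under 20% in WT and 0 were called. Reads over the blocks in ZNF274KO, scaled to each library's total, were 0.924 to 1.14 times those in WT. In bulk DNA a level between 0% and 100% does not tell a mixture of cells from a mixture of alleles within each cell.

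**Figure D3:**
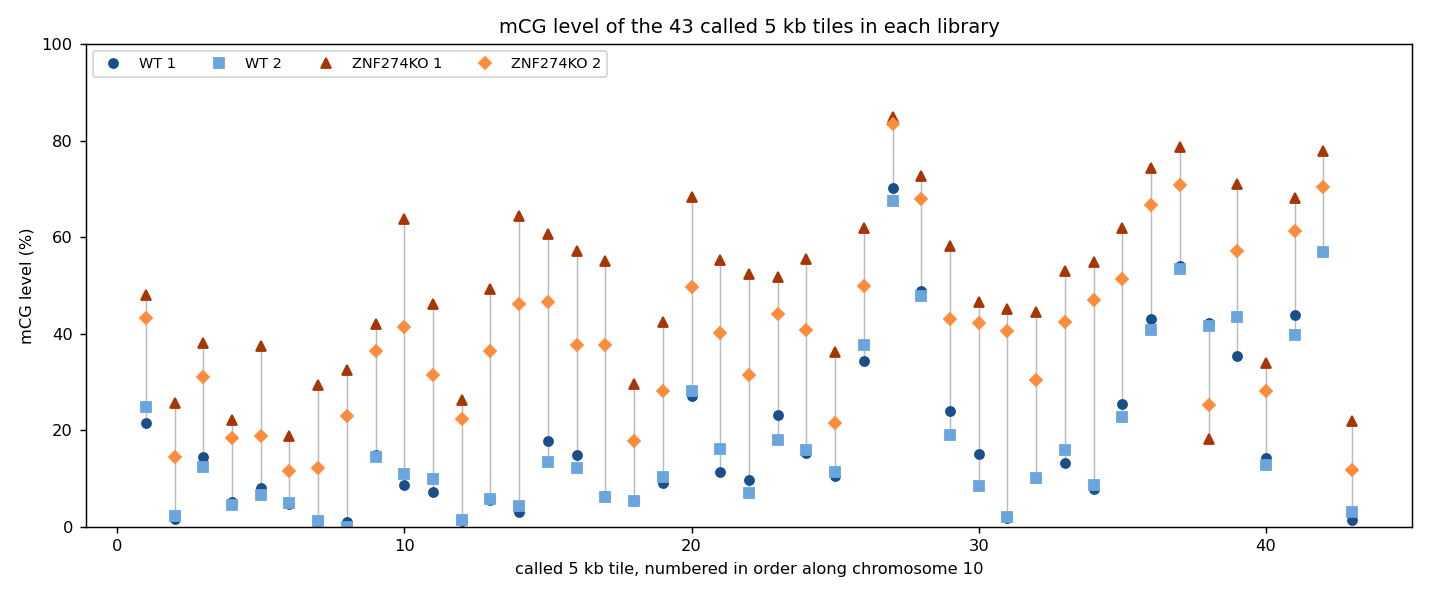
mCG level in each of the 4 libraries (y axis, %) for the 43 called 5 kb tiles in order along chromosome 10 (x axis), with a grey line from the lowest to the highest library. In 42 tiles both ZNF274KO libraries are above both WT libraries with ZNF274KO 1 on top, and in 1 tile, at the start of ZNF239, both are below.

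The tile called lower, chr10:44065001-44070000, held the 5′ part of ZNF239 and 90 CpGs, of which 98.9% lay in sequence occurring once. It stood at 42.2% and 41.6% in WT and 18.3% and 25.2% in ZNF274KO. The log2 odds ratio was -1.39 ± 0.203 (SE), with an edgeR adjusted p of 0.00158 and a limma adjusted p of 0.318. With tiles of 10 kb, edgeR called 26 of the 301 tiles of the windows higher and 0 lower. Of the 282606 such tiles in the genome it called 1398 higher and 26 lower. An unadjusted p under 0.05 in either direction was reached by 96 of the 301 and by 18374 of the 282606. Resolved in 1 kb bins from the start into the gene, the fall lay in the first 2 bins. The bin from 0 to 1 kb went from 23.7% and 29.7% in WT to 4.01% and 10.4% in ZNF274KO, and the bin from 1 to 2 kb from 88.7% and 80% to 53.3% and 60.5%. The stretch of the ZNF239 intron printed above belongs to the first of these bins. In the third bin the libraries stood at 84.3%, 92.6%, 93.9% and 92.0%, and the groups were no longer apart in the direction of the fall.

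**Figure D4:**
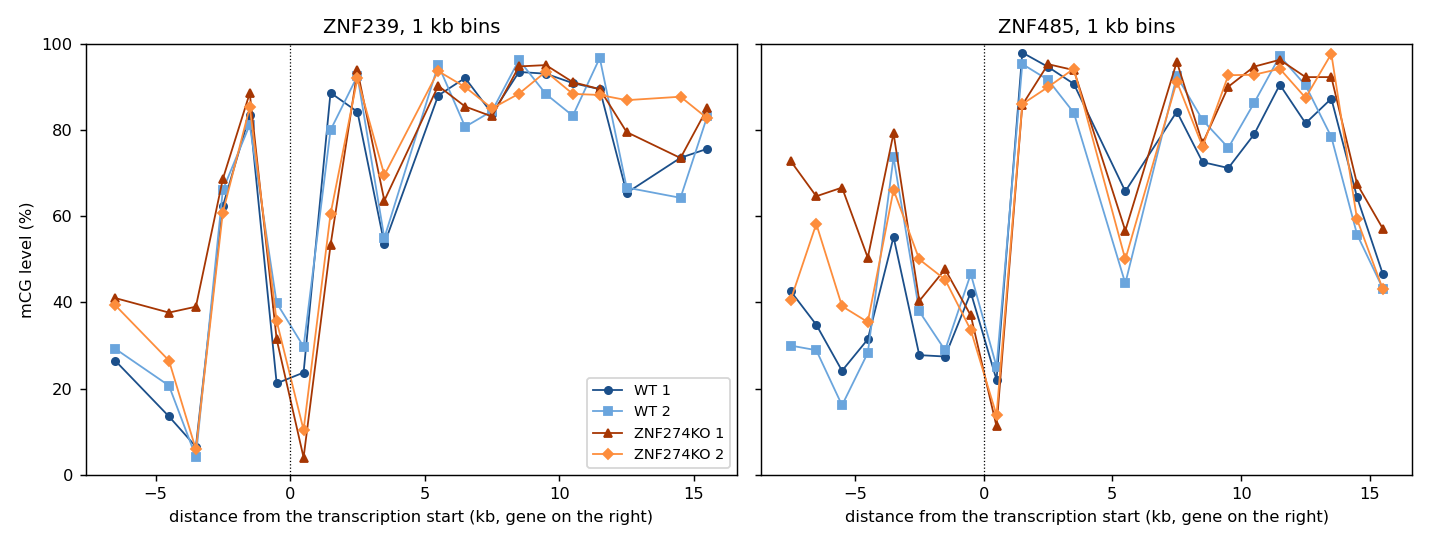
mCG level of each library in 1 kb bins against the distance in kb from the transcription start of ZNF239 (left) and ZNF485 (right), with the gene body at positive distances; bins with fewer than 20 reads in a library are left out. In both genes the ZNF274KO libraries lay below the WT libraries in the first 2 bins of the body.

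The next largest falls among tiles with at least 20 CpGs were not called. The tile at 38300001, at the start of ZNF33A, stood at 72.4% and 61.5% in WT and 55.4% and 47.3% in ZNF274KO, with an edgeR adjusted p of 0.206. It was called without WT 2, the lower of the WT libraries, with an adjusted p of 0.00112, and with the replicate number as a block, with an adjusted p of 0.00505 by edgeR. The tile at 43140001, in the non-coding gene LINC01518, stood at 59.7%, 56.3%, 48.7% and 43.0%, with an adjusted p of 0.395. In both the knockout libraries lay below both WT libraries. From 1 to 5 kb into ZNF33A, however, the group means of the 1 kb bins differed by 7.72, -0.08, -0.73 and 3.85 points. The bin from 0 to 1 kb, which the tile holds in part, stood at 1.31% or less. It held 305 and 413 reads in WT and 537 and 402 in ZNF274KO. The fall of the ZNF33A tile therefore also depended on how reads were spread over it.

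On the p-side 1 of 261 tiles was called, a share of 0.383%, against 0.473% of all tiles called higher. This count does not set the p-side apart. The called tile, chr10:37840001-37845000, lay in no annotated gene, 220454 bases from ZNF248. It stood at 21.5% and 24.9% in WT and 48.0% and 43.3% in ZNF274KO (adjusted p = 0.0441 by edgeR). No p-side tile was called by limma, without the CpGs in repeated sequence, or without either ZNF274KO library. With the replicate number as a block 3 were called, and 4789 of all 563538 tiles. Leaving out a WT library gave further p-side calls, as it gave further calls over the genome. The 250 kb around this tile, chr10:37800001-38050000, stood at 39.6%, 35.9%, 49.3% and 44.5%. Of its 50 tiles, 35 had both ZNF274KO libraries above both WT libraries, against 13.5% of all tiles. The 400 kb that hold ZNF248, ZNF25, ZNF33A and ZNF37A stood at 59.2%, 58.7%, 60.9% and 59.7%. None of their 80 tiles was called, which does not set them apart where 0.473% of all tiles were called higher. Within them, the 25 kb at chr10:38075001-38100000, inside ZNF248, stood at 56.4% and 51.6% in WT and 69.7% and 63.8% in ZNF274KO. The 400 kb nearest the centromere stood at 9.0%, 9.62%, 9.50% and 8.61%, where the groups overlapped. The limits of these stretches were drawn after the values were seen.

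The second comparison took each zinc finger gene by its promoter (1 kb either side of the start), its body and the coding part of its last exon. None of the 9 C2H2 genes was called in any of them by edgeR over all protein-coding genes, apart from the promoter of ZNF239 when the replicate number was a block (adjusted p = 0.0263). In the 17 protein-coding genes of the windows, 5 promoters, 2 bodies and 2 last exons reached an unadjusted p under 0.05, of 17, 17 and 8 tested. Genome-wide, 6.06% of promoters, 7.22% of bodies and 6.88% of last coding exons did so. Limma called none, with 4, 2 and 2 at an unadjusted p under 0.05. Over all genes, edgeR called 0.248% of promoters, 0.918% of bodies and 0.763% of last coding exons, shares at which less than 1 call falls among 17 regions, so a count of 0 does not set these genes apart. Promoters of the zinc finger genes were mostly lower in ZNF274KO: 8 of 9 had a lower group mean, and 7 of 9 had both knockout libraries below both WT libraries, as did 20.8% of all promoters. Their median difference was -4.61 points, which was the value of ZNF37A, and that of all promoters was -0.21 points. The 1 kb bins before and after the start of ZNF37A differed by 3.47 and -1.75 points. The pooled fall exceeded both, so it also depended on how many reads lay in each bin. Before the start there were 255 and 297 reads in WT and 209 and 179 in ZNF274KO. After it there were 304, 265, 363 and 253. With promoters of 500 bases either side, 6 of 9 had a lower group mean, 4 of 9 had both knockout libraries below both WT libraries, as did 18.5% of all promoters of this width, and the median difference was -0.48 points against -0.06 points over all.

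ZNF239 and ZNF485 showed a similar set of values, with a lower promoter and a higher last exon in ZNF274KO. The ZNF239 promoter stood at 23.1% and 31.8% in WT and 10.3% and 16.2% in ZNF274KO, a difference of -14.2 points (edgeR adjusted p = 0.369). The ZNF485 promoter stood at 28.9%, 33.6%, 16.9% and 20.8%, a difference of -12.4 points (edgeR adjusted p = 0.497). For neither promoter did the groups overlap. Within 500 bases of the start, ZNF239 stood at 5.41%, 11.3%, 7.25% and 8.28%, where the groups overlapped, and ZNF485 at 12.2%, 14.2%, 5.11% and 9.34%, where they did not. Last coding exons, which in these genes encode the fingers, stood at 76.1%, 76.0%, 88.8% and 88.3% in ZNF239 (edgeR adjusted p = 0.350). In ZNF485 they stood at 80.6%, 84.2%, 94.5% and 92.0% (edgeR adjusted p = 0.445). The whole body had a lower mean in ZNF274KO in both genes, with differences of -4.29 points in ZNF239 and -8.40 points in ZNF485. Cut into 5 equal parts, the body of ZNF239 had 94 of its 216 CpGs in the part next to the start. The mean there was 37% in WT and 18.1% in ZNF274KO. In the part farthest from the start the means were 74.7% and 85.2%. The ZNF485 body, cut likewise, differed by -14.8 points next to the start. Its other parts differed, in order, by 4.14, 10.3, 9.48 and 10.2 points. In each of those both knockout libraries lay above both WT libraries. The whole-body difference of ZNF485 also depends on how reads are spread over the parts. The part next to its start held 509 and 413 of 1108 and 908 reads in WT. In ZNF274KO it held 859 and 576 of 1457 and 1112.

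ZNF32, a small C2H2 zinc finger gene without a KRAB domain, had the largest whole-body difference among the C2H2 zinc finger genes. It stood at 36.2% and 44.9% in WT and 33.7% and 28.2% in ZNF274KO, with an edgeR adjusted p of 0.605. Its promoter stood at 20.3%, 22.4%, 18.9% and 13.1%, while its last coding exon, at 88.2%, 89.3%, 89.8% and 88.0%, showed overlapping groups. In both the body and the promoter the libraries of a group were spread by several points. Cut into 5 equal parts, the ZNF32 body differed by -5.5 points next to the start and by -3.78 to 4.29 points elsewhere. No part reached the whole-body difference of -9.61 points, which also depends on how reads are spread over the parts. The part next to the start held 720 and 401 of 981 and 626 reads in WT. In ZNF274KO it held 683 and 630 of 917 and 813.

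ZNF487 ended in the zone of rises. Its body as a whole stood at 64.1% and 64.3% in WT and 67.6% and 66.1% in ZNF274KO, and its promoter was below 7% in every library. When the body was cut into 5 equal parts, the part farthest from the start stood at 54.4%, 58.8%, 75.1% and 67.2%, whereas the group means differed by less than 2 points in each of the first 3 parts. Its last coding exon had 4 CpGs, too few for the test. The level there was 0% in WT 1, where a count of 0 allows up to 7.32% by counting error alone, and 5.41% in WT 2, 27.3% in ZNF274KO 1 and 28.3% in ZNF274KO 2.

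In the 5 remaining KRAB zinc finger genes whole-body differences were under 5 points. Bodies of ZNF248, ZNF25, ZNF37A and ZNF33B differed by 2.32, 1.01, -0.29 and 0.403 points, and that of ZNF33A by -4.30 points, with WT 1 at 81.6% and the other 3 libraries between 72.9% and 74.8%. Cut into 5 equal parts from the start, some bodies held larger differences of opposite direction. The fourth part of ZNF248 stood at 57.4% and 53.5% in WT and 70.4% and 63.0% in ZNF274KO, and the last part of ZNF25 at 68.3%, 62.2%, 77.3% and 73.6%. The first part of ZNF33A stood at 60.8%, 48.2%, 45.8% and 44%, and that of ZNF37A at 61.4%, 62.9%, 56.0% and 55.2%. In none of these parts did the groups overlap. The difference in the first part of ZNF33A also depends on how reads are spread over it. Its bin from 0 to 1 kb, at 1.31% or less in every library, held 305 and 413 of 884 and 880 reads in WT. In ZNF274KO this bin held 537 and 402 of 1094 and 773. The ZNF25 promoter stood at 12.7% and 9.82% in WT and 7.14% and 3.89% in ZNF274KO, and the ZNF37A promoter at 25.4%, 28.1%, 19.8% and 24.5%. The direction turned within 500 bases of the start, where ZNF25 stood at 0.654%, 0.30%, 1.17% and 1.46% and ZNF37A at 9.46%, 19.9%, 15.7% and 19.2%, with overlapping groups in ZNF37A. Promoters of ZNF248, ZNF33A and ZNF33B were under 8% in all libraries. The ZNF33B promoter, from 3.49% and 2.88% to 4.56% and 5.15%, was the one with a higher mean in ZNF274KO.

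ZNF33A and ZNF33B are a duplicated pair on opposite sides of the centromere. Their last coding exons were 96.3% identical over 2083 aligned bases, so reads could be placed on the wrong copy, although 90.9% and 91.7% of their CpGs lay in sequence occurring once. That of ZNF33A stood at 96.3%, 95.5%, 95.2% and 93.1%. That of ZNF33B stood at 78.2% and 93.7% in WT and 80.2% and 82.5% in ZNF274KO, with the WT libraries farther apart than the groups. The last exon of ZNF248 lay between 92.5% and 100% in the 4 libraries, and those of ZNF25 and ZNF37A had 2 and 4 CpGs and were not tested.

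**Figure D5:**
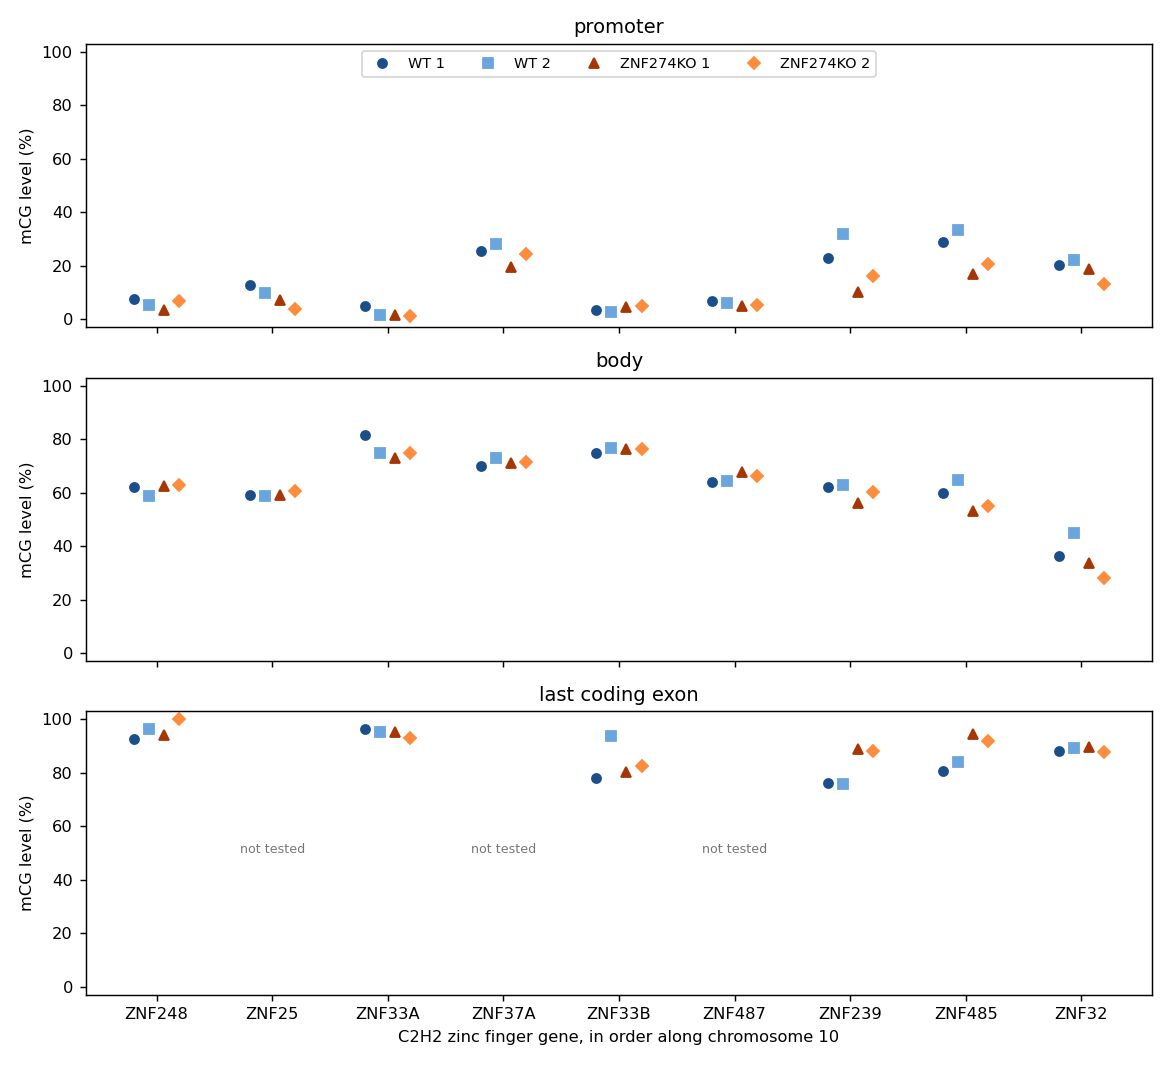
mCG level (y axis, %) of the promoter, the body and the last coding exon of the 9 C2H2 zinc finger genes in order along chromosome 10 (x axis), 1 point for each library; last exons with fewer than 5 CpGs are marked as not tested. ZNF239 and ZNF485 are lower in both ZNF274KO libraries at the promoter and higher in the last exon, and none of the points shown belongs to a called region.

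The pseudogenes of the group are given as values without a test. ZNF37BP, a transcribed pseudogene related to ZNF37A, stood at 69.8% and 68.9% in WT and 63.1% and 60.7% in ZNF274KO over 297 CpGs. Both knockout libraries lay below both WT libraries. ZNF33BP1 had 7 CpGs and 31 to 50 reads a library, and stood at 27.0% and 22.6% in WT and 50% and 31.6% in ZNF274KO, with the groups apart in the other direction. ZNF33CP, with 6 CpGs and 24 to 42 reads a library, stood at 2.38% in WT 1 and at 0% in the others, where a count of 0 allows up to 7.14% in WT 2 and ZNF274KO 1 and 12.5% in ZNF274KO 2.

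Neighbouring genes that encode no zinc finger served as a comparison within the windows. Neither the bodies nor the promoters of BMS1, RET, CSGALNACT2, RASGEF1A, FXYD4 and HNRNPF were called. The last coding exons of CSGALNACT2 and HNRNPF were tested and not called, while those of the other genes had 0 to 4 CpGs and were not tested. RET, which encodes a receptor tyrosine kinase, stood at 64.8% and 66.1% in WT and 65.1% and 63.9% in ZNF274KO over its body. RASGEF1A, a guanine nucleotide exchange factor, stood at 62.5%, 62.0%, 65.2% and 63.8%, and HNRNPF, an RNA-binding protein gene, at 36.6%, 42.3%, 40.1% and 31.4%. Of the 6 promoters 5 had a lower group mean in ZNF274KO, as did 15 of the 17 promoters of the windows. The 17 count the start of ZNF37A, which another gene shares, more than once. Over the 6 the median difference was small, -0.39 points, against -0.21 points over all promoters. Both knockout libraries lay below both WT libraries in 1 of the 6, as in 20.8% of all promoters. The promoter of BMS1, a ribosome biogenesis factor, went from 10.6% and 7.21% in WT to 16.4% and 14.1% in ZNF274KO, the one with a higher mean, with an edgeR adjusted p of 0.732. Body differences over the 6 genes ranged from -3.68 to 2.25 points. The 950 kb from 43000001 to 43950000, where these genes lie, also hold ZNF33B, ZNF37BP and the start of ZNF487. They held 190 tiles with no call. Across the genome 0.473% of tiles were called higher and 0.0131% lower, so a count of 0 does not set this stretch apart.

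The last comparison took each window as 1 value per library. The p-side window stood at 31.6% and 30.7% in WT and 33.5% and 31.8% in ZNF274KO, a difference of 1.52 points. The q-side window stood at 46.1%, 46.5%, 49.5% and 46.9%, a difference of 1.88 points. In both, the knockout libraries lay above the WT libraries, with the smallest p that 2 against 2 libraries can give in a two-sided exact permutation test, 0.333. The rest of chromosome 10 stood at 59.3%, 60.5%, 60.2% and 58.1%, where the groups overlapped. The level of both windows minus that of the rest of the chromosome was -16.6 and -17.5 points in WT and -14.4 and -14.6 points in ZNF274KO, a gap smaller by 2.56 points (exact permutation p = 0.333).

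In the first 50 kb of the q-side, next to the centromere, a CpG carried 92.4 to 110 reads, 9.87 to 11.1 times the mean of the autosomes. Without CpGs over 5 times the median depth, the q-side difference was 3.88 points, and as an unweighted mean over CpGs it was 4.05 points. Without ZNF274KO 1 it was 0.582 points, and the p-side difference was 0.691 points.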

How the data were processed

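EM-seq reads were mapped by the authors to hg19, with rDNA added, using Msuite2 with hisat2, and they deposited a table of read counts per CpG, strand and base for each library, neither pooled nor normalised. How duplicates and low mapping quality were handled is not given in the sources used here. Every one of the 27710999 CpGs used, on X and the autosomes, matched a CG in GRCh37. C counts were taken as methylated and T counts as unmethylated, and reads with other bases were left out. Counts were summed over 5 kb tiles, and over bodies, promoters and last coding exons of GENCODE release 44 genes mapped to GRCh37, each library having 20 reads or more, and with 5 CpGs or more for gene regions. Regions of the whole genome were fitted in R 4.3.3 by the quasi-likelihood test of edgeR 4.0.16. The model had 1 term for each library, for its depth, and 1 for the log-odds of methylation in each group. P-values were adjusted over all regions of a kind by Benjamini-Hochberg. As an alternative, limma 3.58.1 was run on the log2 ratio of methylated to unmethylated reads after adding 1 to both. A CpG was counted as lying in sequence occurring once where the converted stretches of 50 bases around it had no second match in the genome. That held for 71.4% of the window CpGs. Code was tested on simulated counts.

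The members, the gene lists and the tests were chosen with earlier results of these data known. Genes of the lists were named whatever their call, with the 10 largest changes among called tiles of at least 10 CpGs, the 3 largest falls among tiles of at least 20 CpGs, and every block. The annotated genes that hold blocks, the printed stretch and the limits of longer stretches were chosen after their values were seen. Sequences of the regions that were higher in ZNF274KO are not reported here. MTRNR2L7, on the list of neighbours, had no entry in the annotation. Biopython 1.88, numba 0.67.0 and matplotlib 3.10.9 were used with pandas 2.3.3, scipy 1.17.1 and numpy 2.4.6 in Python 3.11.15.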

Additional observations from a re-analysis of the deposited data

How the results depend on the processing

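The 43 called tiles became 9 under limma, 26 of the wider tiles of 10 kb, with 0 lower, and 27 to 63 with each library left out, where 27 was without ZNF274KO 1. Minimums of 10 or 50 reads, centring on the genome-wide level and leaving out deep CpGs gave 43 to 49 calls that held all 43. No body, promoter or last coding exon of the windows was called when a library was left out. The replicate block called 62 tiles and 1 promoter, that of ZNF239, with an edgeR adjusted p of 0.0263. Of all 563538 tiles it called 4789, against 2740 without the block and 856 by limma. Of all 19749 promoters it called 160. The deviations of same-numbered libraries correlated at -0.108 over all tiles, so the numbers were not taken as pairs. Crossed numbers, chosen after seeing the data, called 80 tiles of the windows and 6612 of the genome. With the block as the mean difference within each number, the p-side, q-side and windows-minus-rest differences were 1.52, 1.88 and 2.56 points by construction. With each library left out they ranged from 0.691 to 2.35, 0.582 to 3.18 and 2.08 to 3.04 points.

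Directions turned for some gene regions, none of them called, among them the promoters of ZNF25 and ZNF37A, with differences of -5.75 and -4.61 points. Log2 odds ratios without the CpGs in repeated sequence were -0.0014 for the body of ZNF25, 0.014 for that of ZNF37A, and 0.077 and 0.096 for the promoters of RASGEF1A and ZNF487. Centred, they were 0.0100 for the body of ZNF37A and 0.0026 and 0.013 for the promoters of RET and RASGEF1A. Promoters of 500 bases either side, of which 5 of 17 had both knockout libraries below both WT libraries against 10 of 17, gave 1.35 for ZNF25, 0.32 for ZNF37A, 0.25 for RET and 0.31 for RASGEF1A. With each library left out, ranges crossed 0 for the bodies of ZNF37A (-0.14 to 0.092), ZNF33B (-0.045 to 0.11), BMS1 (-0.17 to 0.20) and HNRNPF (-0.51 to 0.043). They did so for the promoters of ZNF248 (-0.92 to 0.027), RET (-0.28 to 0.23), CSGALNACT2 (-0.34 to 0.082), RASGEF1A (-0.23 to 0.19) and HNRNPF (-0.44 to 0.25). Last coding exons behaved alike in ZNF248 (-0.028 to 4.66), ZNF33B (-1.76 to 0.27), CSGALNACT2 (-0.58 to 0.19), HNRNPF (-0.51 to 0.13) and ZNF32 (-0.11 to 0.16). The causes were not tested. Depth was 5.59 to 6.59 reads per CpG on the p-side and 11.4 to 13.3 on the q-side.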
